A study of Mus musculus with 6 samples.

Results

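Fragments of mt-tRNA-Thr (anticodon TGT, gene mt-Tt) and mt-tRNA-Pro (anticodon TGG, gene mt-Tp) were taken from the deposited table of tRNA-derived fragments (tRFs) called decreased in islets of db/db mice. A member is a row of that table whose host tRNA is 1 of these 2 mitochondrial tRNAs. They make up 15 of the 170 listed tRFs, 10 from mt-tRNA-Thr and 5 from mt-tRNA-Pro. Because the authors listed the tRFs for a decrease in these same 6 libraries, the direction of change was fixed by the choice, and the fold changes and p-values below describe its size and spread and are not independent evidence of a decrease.

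Pancreatic islets of 3 db/db mice (BKS(D)-Leprdb/JOrlRj_db/db, which lack the signalling form of the leptin receptor, labelled pre-diabetic) and of 3 db/+ mice (BKS(D)-Leprdb/+/JorlRj_Heterozygous, with 1 functional copy) were compared by small-RNA sequencing, with 1 library per mouse. All mice were male, 16 weeks old and on chow diet, and the labels and the study's methods differ on the colony they came from. Replicate numbers are those of the labels, and each names 1 mouse of its group. The mutation is present in every tissue, and the islets were not sorted into cell types. The table holds tRFs only, so islet markers could not be checked, and fewer cells of a type cannot be told apart from less RNA per cell.

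Levels are given as normalized reads, the reads of 1 exact fragment sequence divided by the authors' size factor of the library, with no scaling by length. The members held 33, 233 and 292 raw reads in db/db replicates 1, 2 and 3, against 1036, 1163 and 1386 in db/+ replicates 1, 2 and 3. The size factors ran from 0.509 to 1.20 in db/db and from 0.668 to 1.68 in db/+ libraries. The sequencing depth itself is not known from the table. In db/db replicate 1 the whole of mt-tRNA-Pro rested on 5 reads.

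Mitochondrial tRNAs are cut out of long transcripts of both strands of the mitochondrial genome, an enzyme then adds CCA to their 3′ end, and the finished tRNAs carry amino acids to the mitochondrial ribosome, which makes subunits of the respiratory chain. mt-tRNA-Thr reads threonine codons and mt-tRNA-Pro proline codons. Fragments arise where a tRNA is cut, often in one of its loops, and in β-cells the respiratory chain that these tRNAs serve couples glucose oxidation to insulin release.

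The 2 genes lie side by side between mt-Cytb and the control region, on opposite strands, with their 3′ ends facing each other. In GENCODE M21 (GRCm38), mt-Tt (ENSMUSG00000064371.1) is at chrM:15289-15355 on the plus strand and mt-Tp (ENSMUSG00000064372.1) at chrM:15356-15422 on the minus strand, with no base between them. Each gene has 67 bases, and the tRNA has 70 once CCA is added. All 15 members matched these genes without a mismatch. The full tRNAs and 7 of the fragments, chosen because neighbouring ends behaved differently between libraries, are shown with T for U. Capitals mark the anticodon and the added CCA, and the numbers are the first and last base of the tRNA.
mt-tRNA-Thr: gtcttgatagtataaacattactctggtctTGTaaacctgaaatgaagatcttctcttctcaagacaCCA
Thr 18-70: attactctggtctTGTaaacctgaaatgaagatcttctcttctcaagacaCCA
Thr 18-69: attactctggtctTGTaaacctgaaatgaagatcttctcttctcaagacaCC
Thr 21-61: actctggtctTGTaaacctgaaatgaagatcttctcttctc
mt-tRNA-Pro: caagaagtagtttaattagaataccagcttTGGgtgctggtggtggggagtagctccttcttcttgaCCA
Pro 1-44: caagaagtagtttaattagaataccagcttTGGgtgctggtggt
Pro 1-45: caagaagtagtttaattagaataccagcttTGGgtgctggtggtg
Pro 17-70: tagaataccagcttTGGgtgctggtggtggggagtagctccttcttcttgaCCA
Pro 18-70: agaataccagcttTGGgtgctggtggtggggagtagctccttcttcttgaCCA

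The fragments of the plus-strand tRNA came mostly from its 3′ part and those of the minus-strand tRNA from both parts. Of the 10 fragments of mt-tRNA-Thr, 7 ended in the full CCA, 1 ended in CC, 1 ended inside the gene at base 61 and 1 ran from base 1 to base 44. Of the 5 fragments of mt-tRNA-Pro, 3 began at base 1 and ended at bases 44, 45 and 46, and 2 began at bases 17 and 18 and ended in CCA. The genome reads TCA just past the 3′ end of mt-Tt and TGT just past that of mt-Tp, each on the gene's own strand, so the CCA of these fragments is not encoded there. The authors label the 11 fragments that do not begin at base 1 as internal, although 9 of them end in CCA and 1 in CC. In both tRNAs the anticodon is bases 31 to 33, and 14 of the 15 fragments hold all of it. The exception, Thr 36-70, begins after it. Lengths ran from 35 to 55 nt for mt-tRNA-Thr and from 44 to 54 nt for mt-tRNA-Pro. The GC content was 31.8% to 40.4% in fragments of mt-tRNA-Thr and 40.9% to 52.8% in those of mt-tRNA-Pro. No listed fragment ended where another of the same tRNA began, so the list holds no pair that a single cut would leave.

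**Figure D1:**
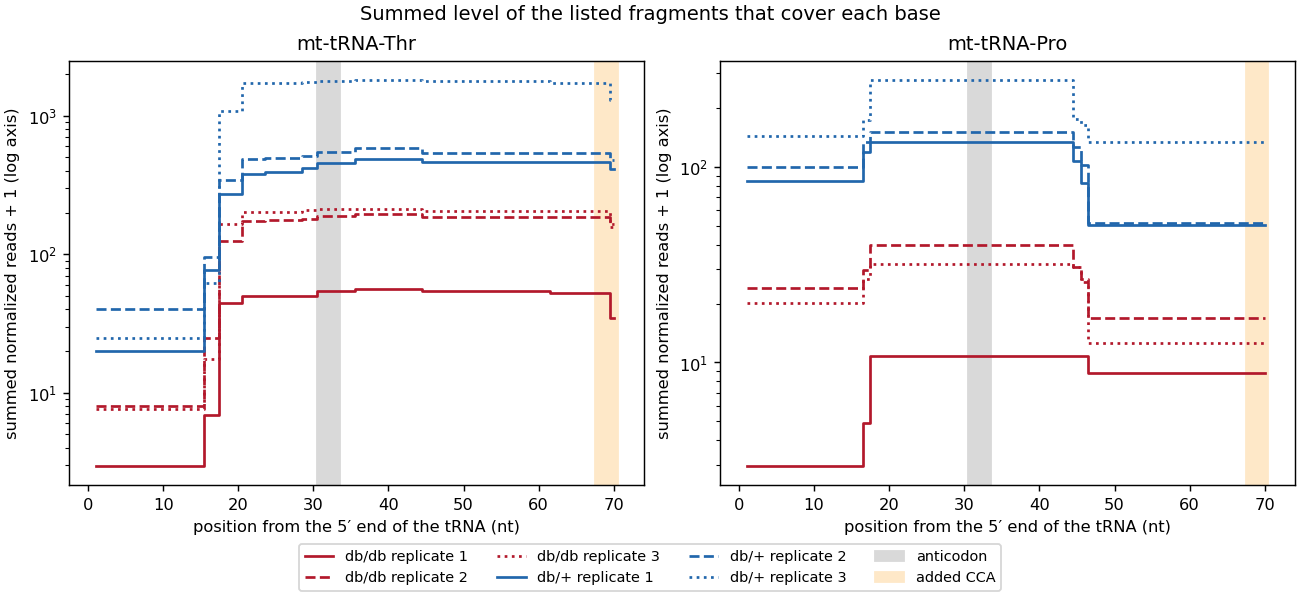
Normalized reads (+ 1, log axis) summed over the listed fragments that cover each base of mt-tRNA-Thr (left) and mt-tRNA-Pro (right), 1 line per library, against the position from the 5′ end in nt. In mt-tRNA-Thr the level climbs between bases 16 and 21 and stays high to the 3′ end, and in mt-tRNA-Pro it is highest over bases 18 to 44.

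The summed level was lower in db/db islets for both tRNAs. The fragments of mt-tRNA-Thr summed to 55.0, 193 and 212 normalized reads in db/db replicates 1, 2 and 3, against 484, 580 and 1799 in db/+ replicates 1, 2 and 3. The groups did not overlap, and db/+ replicate 3 stood far above the other libraries. That was not particular to mt-tRNA-Thr. All listed tRFs together had 15710, 20077 and 37873 normalized reads in db/+ replicates 1, 2 and 3, though not every mt-tRNA was highest in replicate 3. The log2 fold change of mt-tRNA-Thr was -2.59 (standard error, SE, 0.71, limma adjusted p = 0.0131 over the 29 parent tRNAs of the list). It was -1.97 without db/db replicate 1 and nearly the same without db/+ replicate 3, and the adjusted p stayed at or under 0.0347 with any 1 library left out. The fragments of mt-tRNA-Pro summed to 9.82, 38.8 and 30.8 normalized reads in db/db replicates 1, 2 and 3, against 133, 150 and 275 in db/+ replicates 1, 2 and 3. These groups did not overlap either, and the log2 fold change was -2.89 (SE 0.57, limma adjusted p = 0.00594), or -2.32 without db/db replicate 1. With limma, 100% of the 29 parent tRNAs had a lower sum past the test. Once libraries were scaled to the listed nuclear tRFs, the log2 fold changes were -0.80 for mt-tRNA-Thr and -1.13 for mt-tRNA-Pro, and neither passed (adjusted p = 0.535 and 0.389 from limma). Those nuclear tRFs were also chosen for a decrease.

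With all listed fragments summed, no difference between the strands in the size of the change was detected beyond the spread between mice, but the size of that difference depended on which fragments were counted. The level of mt-tRNA-Thr over that of mt-tRNA-Pro, on the log2 scale, was 2.37, 2.29 and 2.75 in db/db replicates 1, 2 and 3, against 1.86, 1.94 and 2.70 in db/+ replicates 1, 2 and 3. The means were 2.47 ± 0.24 in db/db and 2.17 ± 0.47 in db/+ mice (SD, n = 3 each), a difference of 0.30 (exact permutation test, two-sided p = 0.3, adjusted p = 0.5 over 5 measures). With 3 mice against 3, no p under 0.1 can be reached. The difference lay between 0.14 and 0.57 with 1 library left out. An alternative chosen after seeing the data kept only the most abundant fragment of each tRNA (Thr 18-70 and Pro 1-44). The log2 ratio was 4.37, 2.96 and 5.76 in db/db replicates 1, 2 and 3. It was 2.42, 2.85 and 2.60 in db/+ replicates 1, 2 and 3. The groups then did not overlap, with a difference of 1.74 (p = 0.1 in the same exact permutation test, which can go no lower). The change was then -2.25 for mt-tRNA-Thr and -3.99 for mt-tRNA-Pro, where Pro 1-44 rested on 0, 9 and 1 reads in db/db replicates 1, 2 and 3. Pro 1-44 was the most abundant of its tRNA only through db/+ replicate 3. Over db/+ replicates 1 and 2 its mean was 25.7 normalized reads, under Pro 1-46 (41.5) and Pro 17-70 (33.9). This alternative thus rests on a fragment picked by its level in that library. The plus-strand tRNA gave more listed reads than the minus-strand one in all 6 libraries, and both genes are of the same length.

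All 15 members were at least 2-fold lower in db/db islets with an adjusted p up to 0.05 in edgeR's quasi-likelihood test (called passed below), as were 97.6% of the 170 listed tRFs. In all 15 the highest db/db level was under the lowest db/+ level, which was so for 94.7% of the listed tRFs. The median log2 fold change was -2.62 for the fragments of mt-tRNA-Thr and -2.62 for those of mt-tRNA-Pro, against -2.42 over all 170. Without db/+ replicate 3, 12 members passed, as did 158 of the 170 listed tRFs. Without db/db replicate 1, 13 members passed, beside 145 of the 170. Without db/db replicate 2, 13 members passed, beside 150 of the 170. The members that no longer passed were Thr 18-69 and Thr 18-70 in each case, with Thr 21-61 also lost without db/+ replicate 3. With scaling to the nuclear tRFs of the list, 0 members and 0 of the 170 listed tRFs passed in edgeR (1 member at an unadjusted p of at most 0.05). All 15 log2 fold changes of the members stayed below 0, as did 150 of the 170.

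**Figure D2:**
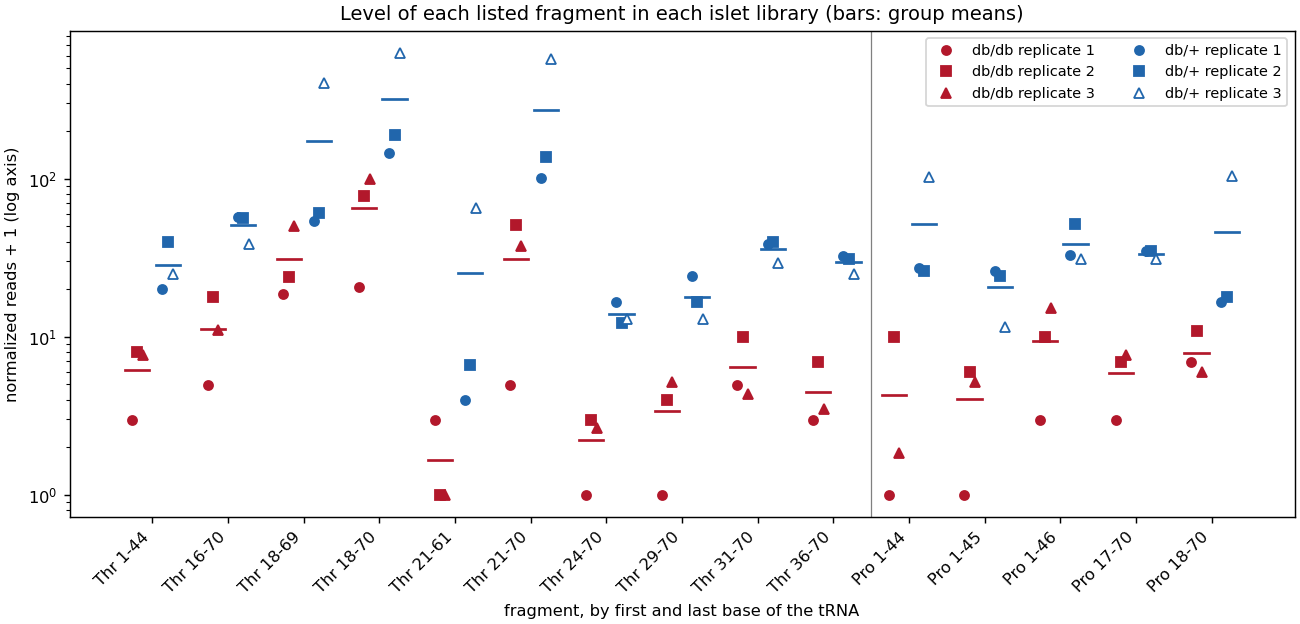
Normalized reads (+ 1, log axis) of each of the 15 fragments, 1 point per library, with db/db in red, db/+ in blue and bars at the group means. No db/db point reaches the db/+ points of its fragment, and db/+ replicate 3 (open triangles) lies well above the other libraries for 6 fragments.

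The most abundant fragments of mt-tRNA-Thr began at bases 18 and 21 and ran to the 3′ end. Thr 18-70 (53 nt, chrM:15306-15355 plus CCA) had 19.6, 76.6 and 98.1 normalized reads in db/db replicates 1, 2 and 3, against 144, 188 and 621 in db/+ replicates 1, 2 and 3. The groups did not overlap, db/+ replicate 3 was far above its group, and the log2 fold change was -2.27 (SE 0.85, edgeR adjusted p = 0.0224). Without db/+ replicate 3 it was -1.33 and did not pass (adjusted p = 0.0606), nor did it pass without db/db replicate 1 (-1.86, adjusted p = 0.0685) or db/db replicate 2 (-2.41, adjusted p = 0.0596). Thr 21-70 (50 nt, chrM:15309-15355 plus CCA) had 3.93, 49.8 and 36.6 normalized reads in db/db replicates 1, 2 and 3, against 101, 136 and 573 in db/+ replicates 1, 2 and 3. Here db/db replicate 1 stood well below its group and db/+ replicate 3 well above its own. The log2 fold change was -3.12 (SE 0.98, edgeR adjusted p = 0.00980). Leaving out db/+ replicate 3 gave -1.92 (edgeR adjusted p = 0.00650).

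Thr 18-69 lacks only the last A of Thr 18-70. It had 17.7, 22.9 and 49.1 normalized reads in db/db replicates 1, 2 and 3, against 53.0, 59.6 and 403 in db/+ replicates 1, 2 and 3. Only db/db replicate 3 lay close to db/+ replicates 1 and 2, and db/+ replicate 3 stood far above all others. The log2 fold change was -2.49 (SE 0.89, edgeR adjusted p = 0.0186). Without that library it was -0.87 (adjusted p = 0.153), and it also failed to pass without db/db replicate 1 (-2.24, adjusted p = 0.0725) or db/db replicate 2 (-2.32, adjusted p = 0.0718). Of the reads of this pair, the form without the A held 47.4%, 23.0% and 33.3% in db/db replicates 1, 2 and 3 (95% Wilson intervals 27.3% to 68.3%, 15.8% to 32.2% and 26.8% to 40.6%). It held 26.9%, 24.1% and 39.3% in db/+ replicates 1, 2 and 3 (22.4% to 31.9%, 20.2% to 28.6% and 35.7% to 43.0%). Within db/+, replicate 3 had a larger share without the A than the other mice, by more than the counting error, and the groups overlapped.

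Thr 21-61 (41 nt, chrM:15309-15349) lacks the 5′ end of the tRNA and stops inside the gene. It had 1, 0 and 0 reads in db/db replicates 1, 2 and 3, against 5, 9 and 43 reads in db/+ replicates 1, 2 and 3. In normalized reads these were 1.96, 0 and 0 in db/db, against 2.98, 5.65 and 64.4 in db/+ mice. The ratio of db/+ over db/db from these totals of 1 and 57 reads was 39.3, with an interval from 6.78 to 1579 for counting error only. The fitted log2 fold change of -5.49 (SE 1.53, edgeR adjusted p = 0.00633) rested on 1 db/db read, and limma on the same fragment gave -3.06 (adjusted p = 0.0156). It fell short of the test in edgeR without db/+ replicate 3 (-3.20, adjusted p = 0.0560), and without db/db replicate 1 no db/db read was left.

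The other 6 fragments of mt-tRNA-Thr varied less between db/+ mice, relative to their mean, than the 4 above. Thr 36-70, which starts after the anticodon, had 1.96, 5.97 and 2.49 normalized reads in db/db replicates 1, 2 and 3, against 31.6, 30.1 and 24.0 in db/+ replicates 1, 2 and 3, a log2 fold change of -2.94 (SE 0.57, edgeR adjusted p = 0.00377). Thr 31-70, which starts at the first base of the anticodon, had 3.93, 8.96 and 3.33 in db/db replicates 1, 2 and 3, against 37.5, 38.9 and 28.4 in db/+ replicates 1, 2 and 3, a log2 fold change of -2.65 (SE 0.55, edgeR adjusted p = 0.00377). In both, the db/+ mice lay close together and far above the db/db mice. Thr 16-70 starts 2 bases before Thr 18-70 and had 3.93, 16.9 and 9.98 normalized reads in db/db replicates 1, 2 and 3, against 56.6, 55.9 and 37.4 in db/+ replicates 1, 2 and 3. Its db/+ replicate 3 was the lowest of its group, where that of Thr 18-70 was the highest. Its log2 fold change was -2.21 (SE 0.57, edgeR adjusted p = 0.00480). The lone 5′ fragment, Thr 1-44, had 1.96, 6.97 and 6.65 normalized reads in db/db replicates 1, 2 and 3, against 19.1, 38.9 and 24.0 in db/+ replicates 1, 2 and 3, with a log2 change of -2.27 (SE 0.57, edgeR adjusted p = 0.00452). Thr 24-70 and Thr 29-70 rested on 4 and 8 db/db reads in all, with log2 fold changes of -3.09 and -2.59. These 6 fragments kept an adjusted p of at most 0.0218 with any 1 library left out.

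Among the fragments of mt-tRNA-Pro, the 3 that begin at base 1 differ by 1 nt at their 3′ ends. Pro 1-44 had 0, 8.96 and 0.831 normalized reads in db/db replicates 1, 2 and 3, against 26.2, 25.1 and 102 in db/+ replicates 1, 2 and 3. Nearly all its db/db reads came from replicate 2, and db/+ replicate 3 was the highest. The log2 fold change was -3.76 (SE 0.92, edgeR adjusted p = 0.00445), -6.21 without db/db replicate 2 and -2.78 without db/+ replicate 3. Pro 1-45, longer by a single G, had 0, 4.98 and 4.16 normalized reads in db/db replicates 1, 2 and 3, against 25.0, 23.2 and 10.5 in db/+ replicates 1, 2 and 3, a log2 change of -2.49 (SE 0.69, edgeR adjusted p = 0.00625). In this fragment db/+ replicate 3 was the lowest of its group. Pro 1-46 had 1.96, 8.96 and 14.1 in db/db replicates 1, 2 and 3, against 32.2, 50.8 and 29.9 in db/+ replicates 1, 2 and 3, a log2 change of -2.06 (SE 0.59, edgeR adjusted p = 0.00695). Of the reads of this trio, Pro 1-44 held 71.6% in db/+ replicate 3 (95% Wilson interval 61.8% to 79.7%), against 31.4% (24.3% to 39.5%) and 25.3% (19.2% to 32.6%) in db/+ replicates 1 and 2. In db/db replicates 2 and 3 it held 9 of 23 and 1 of 23 reads, and db/db replicate 1 had 1 read of the trio.

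The 2 fragments of mt-tRNA-Pro that end in CCA differ by 1 base at their start. Pro 17-70 (54 nt, chrM:15356-15406 plus CCA) had 1.96, 5.97 and 6.65 normalized reads in db/db replicates 1, 2 and 3, against 33.9, 33.9 and 29.9 in db/+ replicates 1, 2 and 3. This was the most even of the members within db/+, with 32.6 ± 2.30 (SD, n = 3), and its log2 fold change was -2.62 (SE 0.53, edgeR adjusted p = 0.00377). Pro 18-70 (53 nt, chrM:15356-15405 plus CCA) had 5.89, 9.95 and 4.99 in db/db replicates 1, 2 and 3, against 15.5, 16.9 and 103 in db/+ replicates 1, 2 and 3. Its mean of 45.2 ± 50.3 in db/+ mice (SD, n = 3) was carried by replicate 3, and its log2 fold change was -2.62 (SE 0.79, edgeR adjusted p = 0.00822), but -1.20 without that library (adjusted p = 0.0296). Of the reads of the pair, the start at base 18 held 75.0%, 62.5% and 42.9% in db/db replicates 1, 2 and 3 (95% Wilson intervals 30.1% to 95.4%, 38.6% to 81.5% and 21.4% to 67.4%). It held 31.3%, 33.3% and 77.5% in db/+ replicates 1, 2 and 3 (22.4% to 41.9%, 24.0% to 44.1% and 67.8% to 85.0%). The db/db pair rested on 4, 16 and 14 reads, and the groups overlapped.

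**Figure D3:**
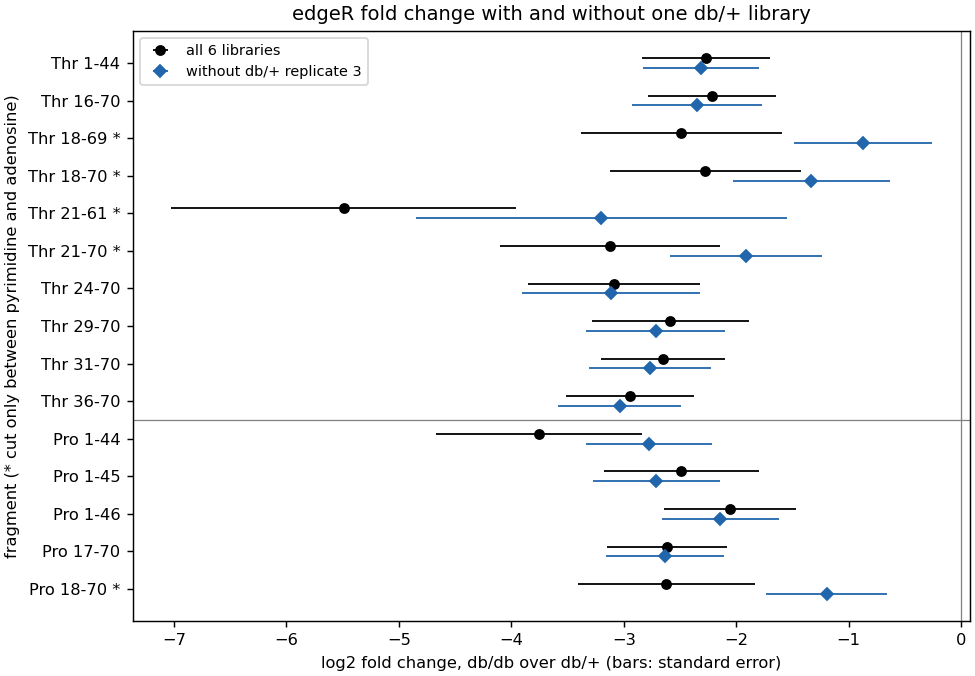
edgeR log2 fold change (db/db over db/+) of each fragment with its standard error, with all 6 libraries (black circles) and without db/+ replicate 3 (blue diamonds); asterisks mark fragments whose internal ends lie only between a pyrimidine and an adenosine. The marked fragments are high in that library and so move towards 0 without it. Of the unmarked ones only Pro 1-44, also high there, does so by a like amount.

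The fragments fell into 2 sets by their level in db/+ replicate 3, and the sets followed the bases at the cut. In 5 fragments every internal end lies between a pyrimidine and a following adenosine: Thr 18-69, Thr 18-70, Thr 21-61, Thr 21-70 and Pro 18-70. In these, db/+ replicate 3 had 3.74 to 14.9 times the mean of db/+ replicates 1 and 2. In 9 of the other 10 it had 0.434 to 0.894 times that mean. The exception was Pro 1-44, at 3.97 times, which ends between T and G, as does Thr 1-44, at 0.826 times. Without db/+ replicate 3, the log2 fold changes of the 5 fragments cut before adenosine ran from -3.20 to -0.87 with a median of -1.33, and 2 of the 5 passed (Thr 21-70 and Pro 18-70). Those of the other 10 ran from -3.11 to -2.14 with a median of -2.71, and all 10 passed (adjusted p at most 2.11e-04 from edgeR). With all libraries the medians were -2.62 for the 5 and -2.60 for the 10. The fold changes without db/+ replicate 3 follow from the levels in that library and are not a second observation. The bases were looked at after the levels were known, so these are descriptions with no test. What sets this library apart was not tested.

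**Figure D4:**
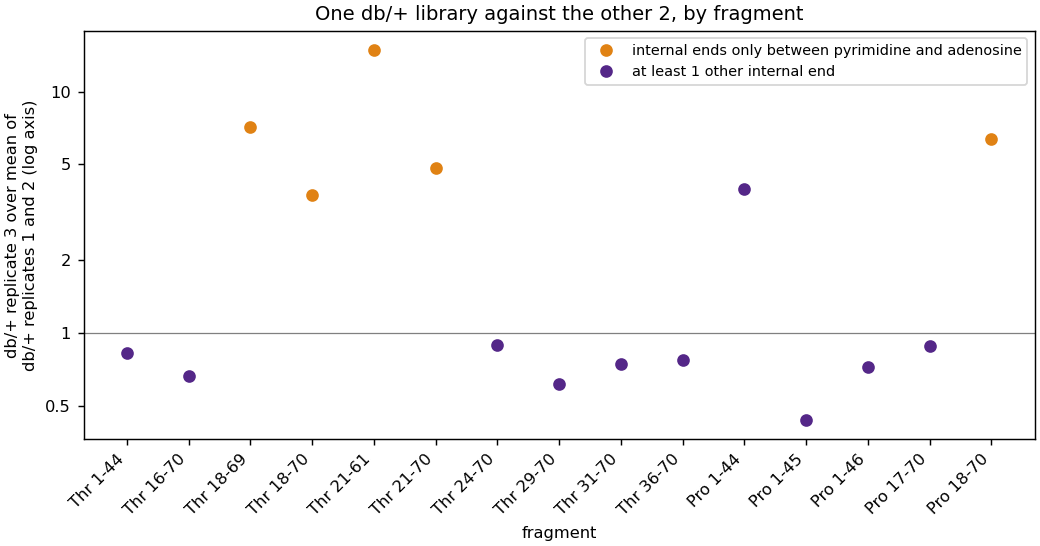
Normalized reads in db/+ replicate 3 over the mean of db/+ replicates 1 and 2 (log axis), by fragment, coloured by whether all internal ends lie between a pyrimidine and an adenosine. The 5 fragments of that kind lie at 3.74 or above, and the others lie below 1 with the exception of Pro 1-44.

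The share of reads in fragments cut only before adenosine was, for mt-tRNA-Thr, 78.6%, 77.3% and 86.7% in db/db replicates 1, 2 and 3 (95% Wilson intervals 60.5% to 89.8%, 70.9% to 82.6% and 81.9% to 90.3%). It was 62.1%, 67.1% and 92.3% in db/+ replicates 1, 2 and 3 (58.7% to 65.4%, 64.0% to 70.1% and 90.7% to 93.7%). The db/db mice thus lay between db/+ replicates 1 and 2 on one side and db/+ replicate 3 on the other. For mt-tRNA-Pro the share was 3 of 5 reads in db/db replicate 1, and 25.6% and 16.2% in db/db replicates 2 and 3 (14.6% to 41.1% and 7.65% to 31.1%), against 11.7%, 11.3% and 37.5% in db/+ replicates 1, 2 and 3 (8.08% to 16.5%, 7.88% to 15.9% and 30.8% to 44.7%). These groups overlapped as well.

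For fragment length and 3′ end, weighted by level, no difference between the groups was detected beyond their spread. The mean length of mt-tRNA-Thr fragments, weighted by level, was 50.7 ± 0.57 nt in db/db and 49.8 ± 0.85 nt in db/+ mice (SD, n = 3 each; exact permutation test, two-sided p = 0.3). With each fragment that had reads weighted equally, the difference was 0.48 nt. The groups' values then did not overlap (p = 0.1 in the same exact test, which can go no lower). Every fragment of mt-tRNA-Thr had reads in each db/+ library, so this difference came only from fragments with 0 reads in db/db mice. They were Thr 24-70 and Thr 29-70 in db/db replicate 1, and Thr 21-61 in db/db replicates 2 and 3. For mt-tRNA-Pro the mean length weighted by level was 49.6 ± 1.88 nt in db/db and 48.4 ± 0.31 nt in db/+ mice (SD, n = 3 each; exact permutation test, two-sided p = 0.3). This difference of 1.27 nt was 0.188 nt without db/db replicate 1 and its 5 reads. Fragments ending in the full CCA held 73.0% ± 11.9 of the level of mt-tRNA-Thr in db/db and 79.7% ± 6.22 in db/+ mice (SD, n = 3 each; exact permutation test, two-sided p = 0.7). This difference of -6.76 percentage points was -0.62 without db/db replicate 1 and -12.5 without db/db replicate 2. For mt-tRNA-Pro they held 53.0% ± 23.5 in db/db and 39.8% ± 7.58 in db/+ mice (SD, n = 3 each; exact permutation test, two-sided p = 0.5). This difference of 13.1 percentage points was -0.40 without db/db replicate 1. Adjusted over the 5 measures, the exact p ran from 0.5 to 0.7, where 3 against 3 allow no unadjusted p under 0.1.

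Among the 19 mt-tRNAs with listed fragments, the decrease of the summed level ranked 3 for mt-tRNA-Pro and 9 for mt-tRNA-Thr, with standard errors wider than the gaps to their neighbours. The ranks ran from 4 to 6 for mt-tRNA-Pro and from 6 to 12 for mt-tRNA-Thr with 1 library left out. They were 1 and 10 with only the most abundant fragment of each mt-tRNA kept. That rank of 1 rested on Pro 1-44, the most abundant of its tRNA only through db/+ replicate 3. The 11 other mt-tRNAs encoded on the strand of mt-Tt had log2 fold changes from -3.35 to -1.69 with a median of -2.17, and the 6 others encoded on the strand of mt-Tp from -3.17 to -2.01 with a median of -2.35. All 17 were lower past limma's test. By mean level in db/+ mice, mt-tRNA-Thr ranked 7 and mt-tRNA-Pro 11 of the 19. The parent whose sum was most like that of mt-tRNA-Pro over the 6 libraries was mt-tRNA-Ser (anticodon GCT), with a root mean square difference of 0.06 between the centred log2 levels, followed by mt-tRNA-Asp (0.16) and mt-tRNA-Ala (0.18). For mt-tRNA-Thr these were mt-tRNA-Asp (0.27), mt-tRNA-Ala (0.32) and mt-tRNA-Pro (0.34). The median over the 28 other parents was 0.66 for mt-tRNA-Pro and 0.74 for mt-tRNA-Thr. All parents were listed for the same decrease, which the 6 libraries share.

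**Figure D5:**
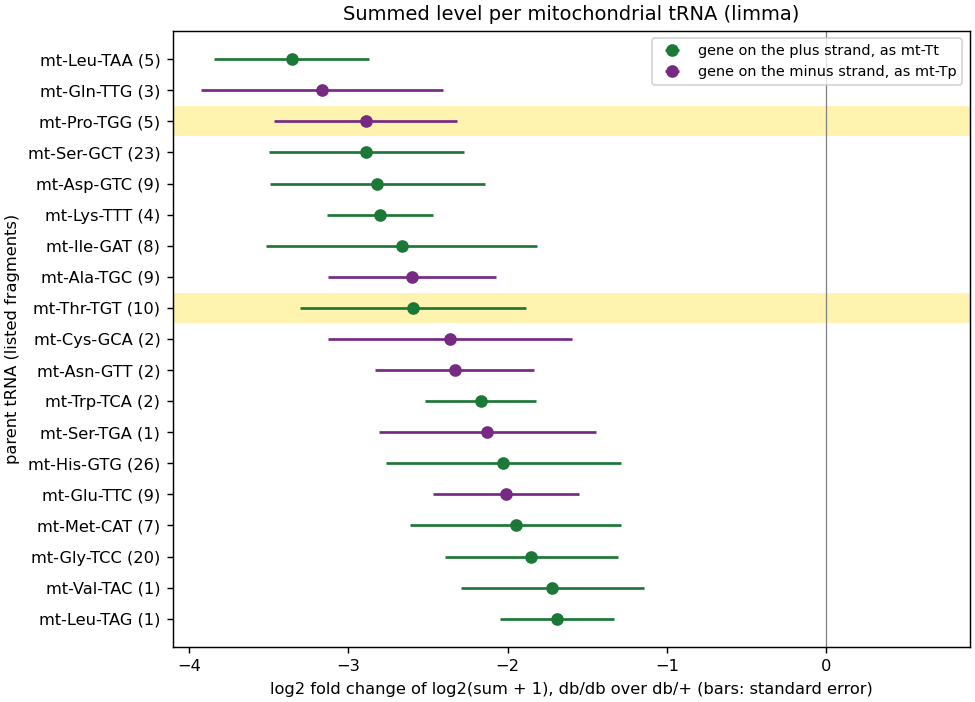
limma log2 fold change (db/db over db/+) of the summed level of each mt-tRNA with its standard error, coloured by coding strand, with the number of listed fragments in brackets and mt-tRNA-Thr and mt-tRNA-Pro shaded. The values of both strands are interleaved between -3.35 and -1.69.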

How the data were processed

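Islet RNA was demethylated and end-repaired with the rtStar kit, and libraries were made with the QIAseq miRNA kit. For tRF annotation the authors relied on mitotRNAdb, GtRNAdb and tRNAscan-SE, with a minimum of 2 reads. Not given in the sources used here: aligner, trimming, genome build and any collapsing by molecular identifier. All deposited counts are raw reads per tRF sequence. The mean signal per tRF deposited by the authors is the mean over 6 libraries of counts divided by DESeq2 size factors. Those factors were solved from both (largest misfit 2.27e-12). Deposited columns of fold changes and p-values, the authors' DESeq2 results, were not used.

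Counts of all 170 tRFs were tested with edgeR 4.0.16 (R 4.3.3) quasi-likelihood fits with library sizes proportional to the size factors, with no TMM scaling, filter or covariate and Benjamini-Hochberg adjustment over the 170. Its standard error is the log2 fold change over the square root of F. Sums per parent tRNA were tested with limma 3.58.1 (trend) on log2(sum + 1), and composition measures with exact permutation tests (SciPy 1.17.1). edgeR and limma were checked on simulated counts of single tRFs, and the limma fit on sums was not checked in this way. The members and lists were chosen with earlier results of these data known. All 15 members, and the 3 parents most like each gene, are named. Alternatives were DESeq2 1.42.0, limma on single tRFs, pseudocounts of 0.5 and 5, no trend and a mean level of at least 10. Others were a replicate block, stricter thresholds, only the most abundant fragment per tRNA, equal weights, rescaling to nuclear tRFs, and leaving out each library. Intervals cover counting error only.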

Additional observations from a re-analysis of the deposited data

How the results depend on the processing

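The count of 15 members past the test stayed at 15 with DESeq2, with limma on single tRFs, with the replicate block and with a decrease of at least 4-fold. Of the 170 listed tRFs, 170, 166, 161 and 130 passed in these settings. The members' count was 13 at an adjusted p of at most 0.01, beside 123 of the 170. With a mean level of at least 10 it was 13 of 13 members, beside 149 of 153 listed tRFs. It was 12 to 15 with 1 library left out, beside 143 to 162 of the 170. With only the most abundant fragment of each parent tRNA kept, 2 fragments of the 2 tRNAs were left (Thr 18-70 and Pro 1-44). Both passed, as did 28 of the 29 kept over the list. In these 2 tRNAs all other fragments overlapped the kept one, and in the other parents overlap was not looked at. The summed levels were then -2.25 for mt-tRNA-Thr and -3.99 for mt-tRNA-Pro, and the difference in their log2 ratio was 1.74, against 0.30 with all fragments (an alternative chosen after seeing the data). Pro 1-44 was kept only because of its high level in db/+ replicate 3. With libraries scaled to the listed nuclear tRFs, 0 members and 0 of the 170 passed (1 member at an unadjusted p of at most 0.05 in edgeR). The summed levels fell short with log2 fold changes of -0.80 and -1.13. That scale moved the median log2 fold change over all listed tRFs to -0.71, from -2.42. With fragments that had reads weighted equally, the difference in the share of mt-tRNA-Thr ending in CCA was 2.69 percentage points, against -6.76 by level. The equal-weight value came only from fragments with 0 reads in db/db mice. With 1 library left out the difference by level ran from -12.5 to -0.62 points, and the length differences from 0.637 to 1.44 nt for mt-tRNA-Thr and from 0.188 to 1.87 nt for mt-tRNA-Pro. For mt-tRNA-Pro the share difference ran from -0.40 to 20.7 points with 1 library left out. The summed levels ran from -2.95 to -1.97 for mt-tRNA-Thr and from -3.26 to -2.32 for mt-tRNA-Pro with 1 library left out, and passed each time. Deviations from the group means, correlated over the listed tRFs, gave 0.21, -0.26 and -0.22 for the same numbers, replicates 1, 2 and 3. Such a correlation leaves out any shift that all tRFs of a library share. It thus cannot show whether mice of the same number go together in level. The sums of both tRNAs were lowest in replicate 1 of each group. For mt-tRNA-Thr these were 55.0 in db/db and 484 in db/+, and for mt-tRNA-Pro 9.82 and 133. Whether the mice were paired was not tested. In this balanced design a replicate block cannot change the log2 fold changes of the sums, so their values of -2.59 and -2.89 say nothing about pairing. With the block, the limma adjusted p fell from 0.0131 to 4.91e-06 for mt-tRNA-Thr and from 0.00594 to 2.72e-06 for mt-tRNA-Pro. Low counts in db/db mice limit the precision, above all of mt-tRNA-Pro.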
